A study of Drosophila melanogaster with 3 samples.

Results

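The sites described here are the binding summits of a tagged CG8159 protein that lay between genes, more than 500 and up to 5000 bp from the nearest transcription start site. They come from chromatin immunoprecipitation followed by sequencing (ChIP-seq), which maps where a protein sits on DNA, in whole Drosophila melanogaster pupae of 24 hours. The flies came from a transgenic line with green fluorescent protein (GFP) joined to the C terminus of CG8159, and per the sample description the precipitation used an antibody against GFP, although the antibody label reads CG8159. Males and females were pooled, the whole animal was used, and all 3 biological replicates belong to 1 group of that same line, so no second condition and no untagged flies enter any value below. The authors' list filtered by the irreproducible discovery rate (IDR), a measure of how well the ranks of peaks repeat from replicate to replicate, held 10239 summits on the dm6 assembly. Of these, 1401 were outside every annotated transcript and 501 to 5000 bp from the nearest start site of any gene, which is 13.7% of the list (95% Wilson interval 13.03 to 14.4%, counting error only). The rule used position alone and no signal. The distance to the nearest start site had a median of 1960 bp, with quartiles at 1126 and 3327 bp.

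Genes are switched on from start sites, but much of the sequence that sets when and where they are switched on lies at a distance from them, between genes or in introns. Such enhancers are stretches of DNA at which transcription factors bind together, and in the compact fly genome several can share the space between 2 neighbouring genes. Runs of A alone or of T alone are known to be stiff and to be disfavoured by nucleosomes, unlike runs that mix the 2 bases freely. A/T-rich words are also the preferred sites of homeodomain, Sox and forkhead factors. RefSeq annotates CG8159 as an uncharacterized protein, and no binding word for it was taken from elsewhere.

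The sequences that carry the most visible property of these sites are those at the summits themselves. Below are the 101 bases centred on the summit (RefSeq, dm6, plus strand) for 7 of the 12 strongest summits found again in all 3 replicates, each named by the gene of the nearest start site, with runs of 6 or more A or T in capitals. For CG31668, the strongest of them whose surroundings lie wholly between genes, the windows centred 300 bp to either side follow the summit.
DNAlig3, summit, chr3R:12403088-12403188: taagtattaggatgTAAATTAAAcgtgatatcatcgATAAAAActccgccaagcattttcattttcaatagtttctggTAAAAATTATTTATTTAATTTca
CG31668, summit, chr2L:2202363-2202463: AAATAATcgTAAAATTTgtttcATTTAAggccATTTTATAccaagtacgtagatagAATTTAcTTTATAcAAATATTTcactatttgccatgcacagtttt
CG31668, left flank, chr2L:2202063-2202163: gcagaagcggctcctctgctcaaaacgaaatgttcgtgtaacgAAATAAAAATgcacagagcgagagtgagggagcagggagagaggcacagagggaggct
CG31668, right flank, chr2L:2202663-2202763: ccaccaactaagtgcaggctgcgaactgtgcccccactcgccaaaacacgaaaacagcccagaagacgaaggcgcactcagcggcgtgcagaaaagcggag
CG17746, summit, chr3L:3241073-3241173: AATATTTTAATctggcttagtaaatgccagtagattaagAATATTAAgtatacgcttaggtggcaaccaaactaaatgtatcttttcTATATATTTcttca
CG43245, summit, chr3L:10776501-10776601: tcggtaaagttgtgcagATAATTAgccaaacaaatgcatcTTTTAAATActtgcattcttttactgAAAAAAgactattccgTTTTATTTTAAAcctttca
lncRNA:CR45392, summit, chr3L:18078118-18078218: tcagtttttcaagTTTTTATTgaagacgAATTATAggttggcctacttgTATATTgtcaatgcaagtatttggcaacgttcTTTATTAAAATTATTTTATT
fz, summit, chr3L:14272553-14272653: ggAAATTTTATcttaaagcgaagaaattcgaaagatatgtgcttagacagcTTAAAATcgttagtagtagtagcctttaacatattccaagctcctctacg
CG43389, summit, chr3L:3246460-3246560: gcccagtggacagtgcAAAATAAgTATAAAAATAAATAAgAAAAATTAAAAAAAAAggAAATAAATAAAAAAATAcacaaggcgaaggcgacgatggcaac

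The 7 summit windows were 65.3 to 75.2% A or T, and their longest runs of A or T were 8 to 21 bases. The CG31668 summit window was 74.3% A or T with 7 runs, against 47.5% with 1 run in its left flank and 40.6% with none in its right flank. The left flank carries the alternating G and A that the GAGA factor is known to bind. The fz window was the least A/T-rich of the 7, at 65.3%.

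The strongest of these sites lay on 3R at 12402930 to 12403333, with its summit at 12403138, in a 437-bp gap between the converging genes Sol1 and Cyp9f2, a cytochrome P450. The nearest start site, 1299 bp away with the summit upstream of it, was that of DNAlig3, which encodes a DNA ligase. Its signal, the value that the authors' peak caller gave each peak, was 11085, and it ranked 16, 12 and 12 among the peaks of replicates 1, 2 and 3. The signal has no unit in common between lists, so replicates are compared by rank. The next strongest, on 2L at 2202146 to 2202638, had a signal of 9842 and lay 3753 bp downstream of the start of CG31668, with ranks of 32, 15 and 22.

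The remaining named sites were weaker than these and close to each other in signal. The site on 3L upstream of CG17746 had a signal of 6560 and ranked 76, 75 and 74. The site downstream of CG43245 had a signal of 6268 and ranked 111, 62 and 83. The site 587 bp downstream of the start of lncRNA:CR45392 had a signal of 6173 and ranked 71, 169 and 78, and it shared its gap with 4 other summits of the same kind. A site of signal 6073 lay 1740 bp upstream of fz, which encodes the Wnt and planar polarity receptor Frizzled, in a 27331-bp gap, and ranked 70, 175 and 86. The site upstream of CG43389 had a signal of 6044 and ranked 73, 67 and 212, the widest spread of ranks among the sites printed above. A site 1799 bp upstream of E(spl)malpha-BFM, a Bearded-family gene of the Enhancer of split complex that responds to Notch, had a signal of 5145 and ranked 141, 132 and 166. The last 3 of the 12 were CG12268 with 5000 on 3R, lncRNA:CR45935 with 4783 on 3L and lncRNA:CR45568 with 4657 on 3R. Of the 12, 7 were upstream and 5 downstream of the nearest start site, 7 were on 3L, 4 on 3R and 1 on 2L, and none ranked below 273 in any replicate.

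Within the whole set the signal was skewed towards low values. The median was 486, the quartiles were 330 and 931, and the range ran from 246 to 11085. Against the other 8838 IDR summits, with a median of 531, the ratio of medians was 0.916. In the 10239 strongest peaks of each replicate this ratio was 0.956, 0.946 and 0.923 (mean 0.942 ± 0.0170, SD, n = 3), so the sites were weaker in each replicate. In whole animals, binding in few cells and weak binding in many cells cannot be told apart. Against promoter summits (within 500 bp of a start site, median 558, n = 3194) the ratio was 0.872, with 0.904 ± 0.0355 over replicates (SD, n = 3). Against intronic summits at the same distances from start sites (median 543, n = 2734) it was 0.896, with 0.910 ± 0.0141 over replicates (SD, n = 3). Against intergenic summits beyond 5 kb (median 512, n = 817) it was 0.951 in the IDR list and 0.933, 1.01 and 1.01 in the replicates, so no difference in 1 direction was seen. An exact sign-flip permutation test over 3 replicates, 2-sided, cannot give a p below 0.25, so no difference here could pass 0.05. All 21 differences put to this exact test gave p = 0.25, before and after Benjamini-Hochberg adjustment, which says that the replicates of each shared 1 direction.

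The share of such sites among peaks was smaller at the top of the ranking. They made up 11.2% of the 1000 strongest peaks of the list called on pooled replicates, 14.0% of the next 1000, 13.03% of ranks 2001 to 5000 and 14.5% of ranks 5001 to 10239. Among the weaker pooled peaks, which the IDR list leaves out, the share was 15.1% for ranks 10240 to 20000 and 17.2% for ranks 20001 to 30000. The share upstream of the nearest start site went the other way, at 74.1% of the sites among the 1000 strongest peaks and 62.2% among ranks 20001 to 30000.

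Replicates repeated most of the sites. The IDR list keeps peaks whose ranks repeat between these replicates, so high overlap and correlation were partly set by that choice. Of the 1401, 1073 (76.6%, 95% Wilson interval 74.3 to 78.7%) met a peak among the 10239 strongest in each of the 3 replicates, against 78.3% of the whole IDR list, so the share was near the background. A further 249 were overlapped in 2 replicates, 78 in 1 and 1 in none. Replicate 1 held 87.7% of the sites, replicate 2 held 91.2% and replicate 3 held 92.0% (mean 90.3 ± 2.32%, SD, n = 3). The median signal was 640 for sites held by all 3, 297 for those held by 2 and 267 for those held by 1. Of the 351 weakest sites, with signal up to 330, 89 were held by all 3, and of the 350 strongest all were. Read numbers are not given in the lists, so the depth of each replicate is unknown. On the log2 scale the signal of the overlapping peaks correlated between replicates 1 and 2 with r = 0.891 over 1388 sites, between 1 and 3 with r = 0.927 over 1385 and between 2 and 3 with r = 0.915 over 1390. These are correlations across sites of the same libraries and are given as a description.

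**Figure D1:**
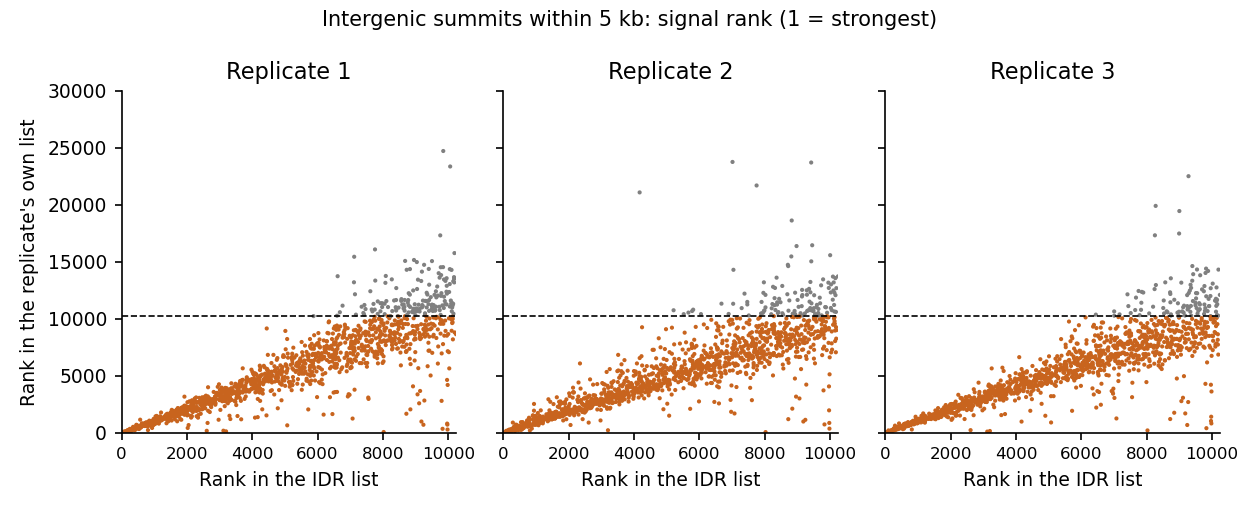
Each point is 1 of the 1401 intergenic sites within 5 kb of a start site, with its signal rank in the IDR list on the x axis and the rank of the strongest overlapping peak in that replicate's own list of 30000 on the y axis (1 is strongest). Points above the dashed line at rank 10239, in grey, are not counted as held by that replicate, and points far below the trend are weak IDR summits that overlap a strong replicate peak. The intervals of 135 of the 1401 sites overlap another IDR peak.

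The sites were measured against the sequence in which they could lie, which is all sequence outside transcripts and 501 to 5000 bp from a start site. This eligible sequence covers 16.4 Mb, or 12.2% of the 6 chromosome arms. The sites had a density of 85.6 per Mb of eligible sequence, against 76.5 per Mb for all IDR summits over the 6 arms, a ratio of 1.12. The replicates gave ratios of 1.05, 1.10 and 1.12 (mean 1.09 ± 0.0393, SD, n = 3). Without arm 3L the ratio was 0.9996, so the excess over the genome as a whole rested on 3L.

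Arm 3L held 442 of the 1401 sites at 126 per Mb, more densely than any other arm. The replicates gave 121, 119 and 121 per Mb on 3L. On 2L the density was 79.2 per Mb, on 3R 78.6, on X 71.6 and on 2R 67.3. The small arm 4 held 4 sites, or 33.4 per Mb. The 3L replicate values were 42.0 ± 3.64 per Mb above those of 2L and 55.7 ± 3.73 per Mb above those of 2R (SD, n = 3), and no replicate value of another arm reached those of 3L. Over all IDR summits 3L stood out less, with 83.7 per Mb of arm, against 82.7 on X and 72.3 on 3R. The intergenic sites within 5 kb were 18.8% of the IDR summits of 3L and 8.79% of those of X. When only 100-kb windows with an IDR peak were counted, 3L had 135 per Mb and 2L 86.4.

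**Figure D2:**
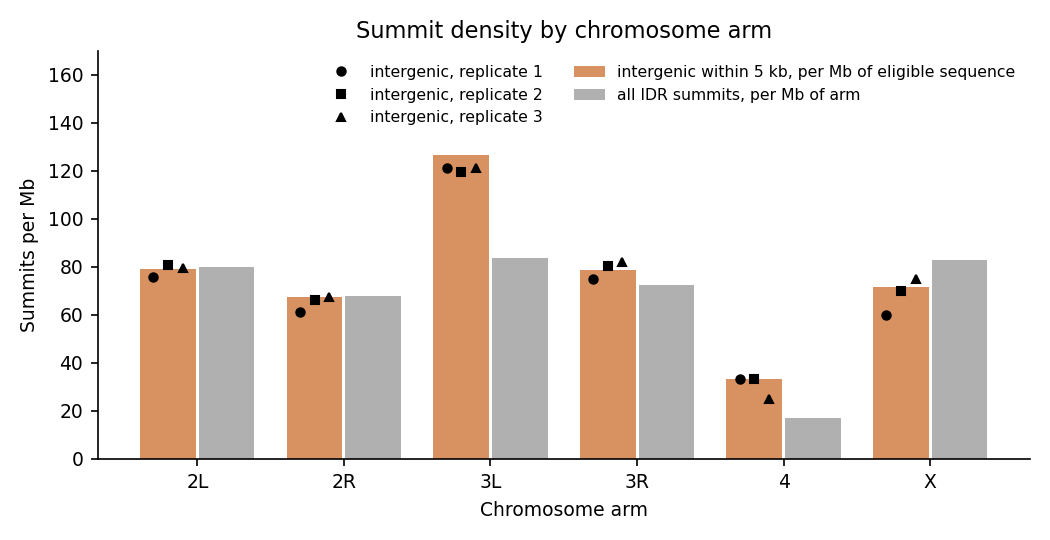
Density of the intergenic sites within 5 kb in summits per Mb of eligible sequence (orange bars, IDR list; points, the 3 replicates) beside that of all IDR summits per Mb of arm (grey bars), for each chromosome arm. On 3L the sites reached 126 per Mb with replicate points from 119 to 121, while the grey bar of 3L, at 83.7, stood close to that of X.

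Along 3L the density was uneven. It was 158 per Mb in the first 5 Mb, 89.3 from 5 to 10 Mb, 182 from 10 to 15 Mb, 148 from 15 to 20 Mb and 55.4 from 20 to 25 Mb. From 25 Mb to the end no site was found in 107235 bp of eligible sequence, where 3 counts would be 28.0 per Mb. The replicate means were 155 ± 9.04, 88.8 ± 6.20, 169 ± 5.63, 135.4 ± 10.7 and 58.3 ± 2.65 per Mb for the first 5 of these stretches (SD, n = 3).

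Relative to the nearest start site, 939 of the 1401 sites (67.0%, 95% Wilson interval 64.5 to 69.4%) were upstream, against 64.1% of the eligible bases. The replicates gave 67.1 ± 0.550% (SD, n = 3). Upstream sequence held 89.5 sites per Mb and downstream sequence 78.8, and in the replicates upstream was higher by 10.004, 8.89 and 13.1 per Mb. The excess was small beside that near start sites. From 501 to 1000 bp the density was 103 per Mb, from 1001 to 2000 bp 91.6, from 2001 to 3000 bp 69.7, from 3001 to 4000 bp 87.1 and from 4001 to 5000 bp 75.7. The first of these exceeded the last by 28.9 ± 1.09 per Mb in the replicates (SD, n = 3), and the bins between did not fall in order. At 501 to 1000 bp the downstream density was above the upstream one, 124 per Mb downstream against 98.3 upstream. Downstream positions so close to a start site and outside all transcripts lie past the end of short transcripts. From 2001 to 3000 bp the sides were close, with 71.3 per Mb downstream and 68.7 upstream, and replicate means of 72.4 for both. Upstream was higher in the other bins, with 88.0 per Mb upstream and 60.3 downstream from 4001 to 5000 bp.

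**Figure D3:**
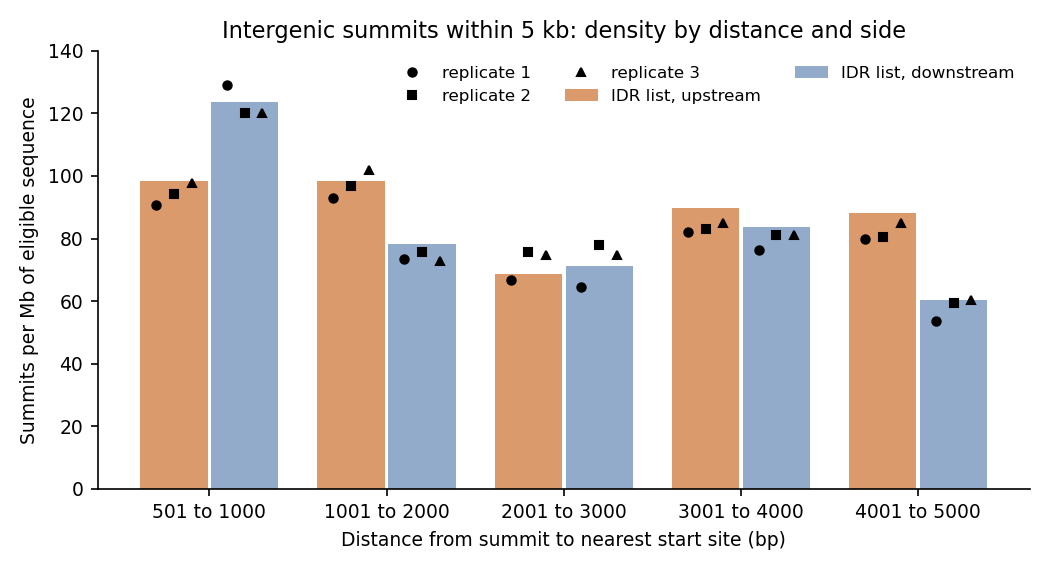
Density of the intergenic sites in summits per Mb of eligible sequence by distance from the nearest start site, upstream (orange) and downstream (blue) of it; bars are the IDR list and points the 3 replicates. Downstream of start sites the bar at 501 to 1000 bp reaches 124 and that at 4001 to 5000 bp 60.3, while the upstream bars lie between 68.7 and 98.3.

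Strong and weak summits stood on either side of both distance bounds. Just inside 500 bp were the summits of E(spl)m2-BFM at 504 bp with signal 4355, of Cpr72Eb at 505 bp with 2447 and of lncRNA:CR45998 at 505 bp with 485. Just outside it were those of nw at 499 bp with 2488, of Cbs at 498 bp with 525 and of CG12768 at 496 bp with 1170. At the far bound the summits of Tollo at 5000 bp with signal 1309, of lncRNA:CR45245 at 4988 bp with 1052 and of tRNA:Ile-TAT-1-1 at 4980 bp with 388 were inside. Outside were those of a transcript with no gene symbol at 5001 bp with 355, of lncRNA:CR44863 at 5008 bp with 409 and of the cell death gene hid at 5029 bp with 2212. Across all sites the log2 signal and the distance had a Spearman rho of -0.049 (n = 1401), a description over sites that share libraries.

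Sites were denser beside genes whose own promoter carried a peak. A gene is called occupied here where an IDR summit lies within 500 bp of one of its start sites, which holds for 22.9% of protein-coding genes. Of the 1401 sites, 401 (28.6%) had an occupied gene nearest, on 13.7% of the eligible sequence. Their density was 179 per Mb, against 70.8 per Mb nearest to genes that were not occupied. The replicates gave 178 ± 2.32 and 68.4 ± 3.12 per Mb (SD, n = 3), a ratio of 2.61 ± 0.0882. Beyond 1000 bp from the start site the densities were 171 and 68.1 per Mb, and without 3L they were 155 and 62.3 per Mb. Counted by gene, 176 of the 630 protein-coding genes nearest to a site were occupied (27.9%), against 909 of the 5297 that had eligible sequence and no site (17.2%). Occupancy was taken from the same IDR list for every replicate value.

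Sites were denser beside non-coding RNA genes than beside protein-coding ones. Their start sites were nearest to 493 sites at 107 per Mb, against 864 sites at 78.4 per Mb for protein-coding genes. The replicates gave 103 ± 1.23 and 76.7 ± 3.74 per Mb (SD, n = 3). Without 3L the densities were 88.9 and 70.5 per Mb, with a difference of 17.3 ± 3.24 per Mb over replicates (SD, n = 3). Start sites of tRNA genes were nearest to 33 sites, at 139 per Mb of their 1.45% of the eligible sequence, with 135 ± 8.42 per Mb in the replicates (SD, n = 3). Pseudogenes were nearest to 7 sites, at 16.4 per Mb. Only 4 of the 1401 sites fell inside an annotated transposable element, on 6.69% of the eligible sequence. The density was 3.65 per Mb inside against 91.5 per Mb outside. The aligner is not known, and whether reads could be placed uniquely within these elements was not tested.

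The arrangement of the neighbouring genes went with smaller differences. Gaps between genes that point away from each other (divergent) held 96.1 sites per Mb, those between genes on the same strand (tandem) 81.4 and those between converging genes 83.4. In the replicates divergent gaps were higher than tandem ones by 17.4 ± 4.11 and than convergent ones by 12.1 ± 2.54 per Mb (SD, n = 3). By length, gaps of up to 20000 bp had densities of 87.2 to 92.9 per Mb in 4 length classes, gaps of 20001 to 50000 bp had 70.0 and longer gaps 30.6.

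**Figure D4:**
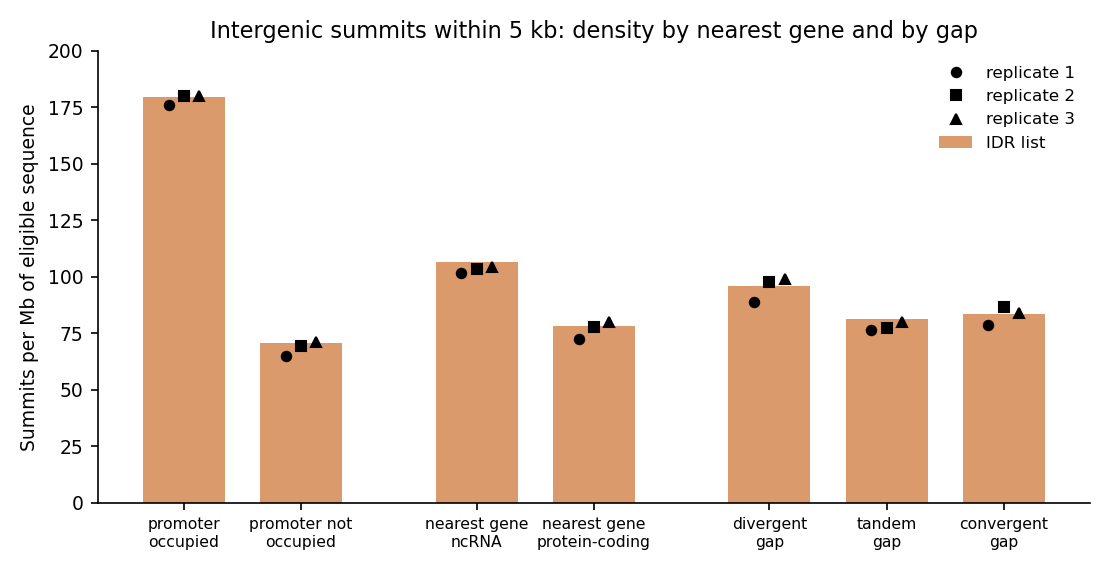
Density of the intergenic sites within 5 kb in summits per Mb of eligible sequence, by whether the promoter of the nearest gene is occupied, by the class of that gene and by the orientation of the genes at the ends of the gap; bars are the IDR list and points the 3 replicates. The occupied bar stands at 179 and the other bar of that pair at 70.8, and the replicate points of the pair do not overlap.

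Many of the sites shared a gap. Of the 6388 gaps with eligible sequence, 877 held at least 1 site, and 824 of the 1401 sites (58.8%) shared their gap with another. Summits of overlapping peaks count as separate sites here. The intervals of 135 of the 1401 sites (9.64%) overlapped another IDR peak, against 9.57% of all IDR peaks. The nearest other IDR summit of any kind lay at a median of 1603 bp, against 1868 bp for all other IDR summits, 1969 bp for intergenic summits beyond 5 kb, 1490 bp for intronic ones at the same distances and 2315 bp for promoter summits. It lay within 2000 bp for 56.5% of the sites, against 52.0% of all other IDR summits and 60.3% of the intronic ones. The share of sites in a shared gap has no counterpart in the other classes here. The stronger a site, the nearer its neighbour was, with medians of 1050 bp among the 350 strongest sites and 2877 bp among the 351 weakest. Gaps with 5 or more sites numbered 27 and held 163 sites.

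The gap with most sites, by number and then summed signal, was on 3L between lncRNA:CR45937 and lncRNA:CR45936, at 18234761 to 18243699. It held 8 sites within 8939 bp, with signals from 254 to 3673, and 7 of them were held by all 3 replicates. The gap between CG17154 and vers on 3L also held 8, with signals up to 2310, and so did the one between dls and CG13073, with signals up to 1971. On 3R the gap between CG18404 and lncRNA:CR46113 held 7, with signals up to 4650. The gap between lncRNA:CR45632 and Gr93a, which encodes a gustatory receptor, also held 7, all of them held by all 3 replicates. By nearest gene, lncRNA:CR45936 led with 9 sites. The gene shd, whose product makes the active moulting hormone 20-hydroxyecdysone, was nearest to 6, the strongest of them with signal 1855.

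Base composition set the summits apart from their surroundings. The 101-bp summit window was 69.7% A or T on average, against 53.2% in the windows 300 bp to either side and 59.3% in 158412 windows tiling the eligible sequence. The replicates gave 69.3 ± 0.383% at the summit (SD, n = 3). In 1253 of the 1401 sites (89.4%) the summit window exceeded the mean of its flanks. The same held for 85.0% of all IDR summits and 93.3% of the intergenic ones beyond 5 kb. The flanks were below the eligible mean in 1134 sites (80.9%), against 74.1% and 87.6% in the same order. Averaged along the sequence, A or T stayed above the eligible mean over 223 bp, with 226 ± 12.7 bp in the replicates (SD, n = 3). The lowest values, 53.2% to the left and 52.6% to the right, lay at -287 and 308 bp from the summit. The flank windows, centred at 300 bp, thus sat near the lowest points of the profile. At -550 and 550 bp the values were 57.3% and 57.5%. Each of the 12 strongest sites chosen above had a summit window above both of its flanks.

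**Figure D5:**
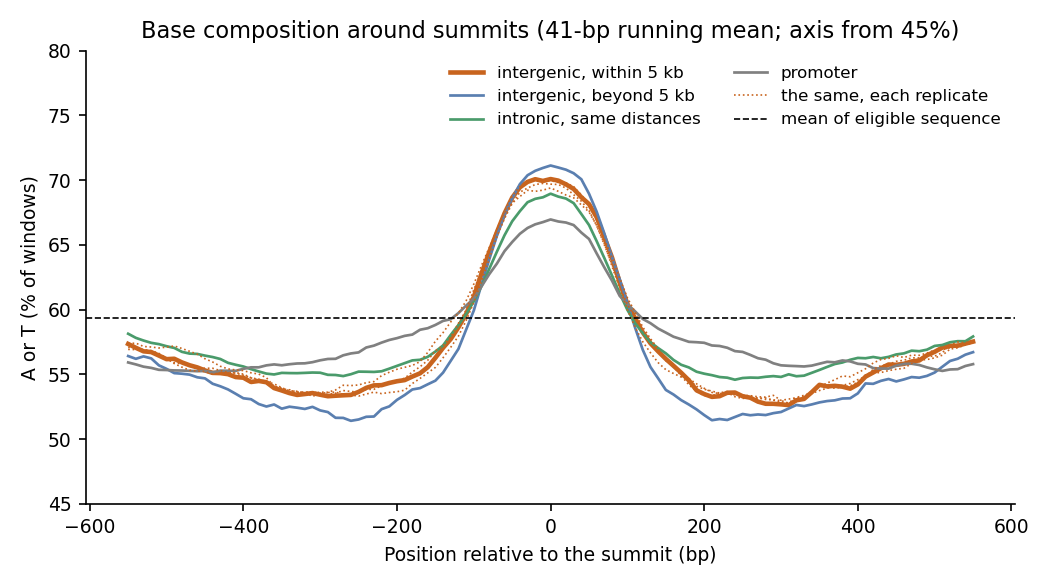
Percent of windows with A or T at each position around the summit (41-bp running mean, y axis from 45%), for intergenic sites within 5 kb in the IDR list (thick orange) and in each replicate (dotted), for the other classes of IDR summit and for the mean of the eligible sequence (dashed, 59.3%). The curve of the sites reaches 70.1% at the centre and falls to 52.6% in the right flank, between the curves of the intergenic summits beyond 5 kb and of the intronic ones.

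The same shape was seen in the other classes to different degrees. Sites within 5 kb were less A/T-rich at the summit than intergenic summits beyond 5 kb, with differences of -0.926, -0.990 and -0.541 percentage points in the 3 replicates. They were richer than intronic summits at the same distances by 1.36 ± 0.1196 points and than promoter summits by 3.27 ± 0.546 points (SD, n = 3). Among the sites, the summit window was 71.2% A or T in the 350 strongest and 68.1% in the 351 weakest, and the flanks were 52.3% and 54.2%. The 442 sites on 3L had 69.8% at the summit, and the sites of 2L, 2R, 3R and X had 69.2 to 69.8%. The 4 sites on arm 4 had 62.1% at the summit and 66.8% in the flanks, the reverse of the other arms.

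Uninterrupted A/T runs followed the composition. A run of 10 or more A or T occurred in 892 of the 1401 summit windows (63.7%), against 21.6% of the flanks and 35.8% of the eligible windows. Such a run was also in 64.6% of the windows of intergenic summits beyond 5 kb, 58.9% of intronic and 57.3% of promoter ones. Runs of 8 or more of the same base, A or T, were in 8.42% of the summit windows, against 5.32% of the flanks and 5.91% of the eligible windows, and in 11.3% of intronic summit windows.

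Words of known factors were looked for in the 101-bp windows on either strand, and each share is read against eligible windows weighted to the same A/T content, since composition alone moves it. Most A/T-rich words were at or below that level. TAATTA, the homeodomain core, was in 12.0% of the summit windows, against 13.6% of weighted eligible windows, 8.07% of all eligible windows and 4.57% of the flanks. ACAAT, the Sox core, was in 32.3%, against 33.4% of the weighted windows and 27.2% of all eligible windows. TGTTTA, the forkhead core, was in 13.2%, against 14.8% and 9.83%. The run AAAAAAA was in 15.3%, against 17.1% and 9.71%. The alternating ATATATA was above it, in 12.1% of the summit windows (95% Wilson interval 10.5 to 13.9%; 12.0 ± 0.683% in the replicates, SD, n = 3), against 9.90% of the weighted windows, 4.39% of all eligible windows and 8.52% of intronic summits.

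The next 6 words were scarcer at the summits than in the flanks. GAGAG, bound by the GAGA factor, was in 6.57% of the summit windows, against 14.3% of the flanks, 10.5% of all eligible windows and 6.52% of the weighted ones. CACACA was in 4.93%, against 11.5% of the flanks, 8.93% of all eligible windows and 5.45% of the weighted ones. The E-box CAGCTG, a word of basic helix-loop-helix factors, was in 1.64%, against 4.07%, 3.81% and 1.81% in the same order. CAGGTG, another E-box, was in 1.43%, against 2.96%, 3.08% and 1.50%. CACGTG, also an E-box, was in 0 of 1401 windows, which allows a share of up to 0.214%, against 1.14% of the flanks, 1.19% of all eligible windows and 0.558% of the weighted ones, and the replicates had it in 0.123 ± 0.0449% of theirs (SD, n = 3). The Pho word GCCATTT was in 1.71%, against 3.57%, 3.51% and 2.53%.

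The other words were close to the weighted level or rare. AGATAA, for GATA factors, was in 9.21% of the summit windows, against 8.61% of weighted and 5.65% of all eligible windows. TGTGGT, for Runt-family factors, was in 4.14%, against 3.25% and 4.20%, and GGAATG, for Scalloped, in 3.43%, against 3.59% and 5.10%. AGGTCA, the nuclear receptor half-site, was in 1.36%, against 1.80% and 2.32%. CAAGGTCA, the Ftz-f1 word that contains it, was in 0 of 1401 windows, which allows up to 0.214%, against 0.119% and 0.186%. CAGGTAG (Zelda) was in 0.428%, against 0.248% and 0.432%, with 0.393% of the flanks, and TGACTCA (AP-1) in 0.642%, against 0.626% and 0.761%. The promoter words TATCGATA, the DREF element, and GGTCACAC, core promoter motif 1, were in 0.357% and 0.214% of these summit windows, against 0.302% and 0.0756% of the weighted windows, 0.193% and 0.122% of all eligible windows, 0.0357% and 0.0714% of the flanks and 1.13% and 1.22% of promoter summits. A match describes these letters in this window only and does not show a bound factor.

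Among all words of 6 bases, those most in excess over the flanks were picked on 2L, 3L and X and then counted on the other arms. AATATA was in 32.2% of the 503 summit windows of the other arms, against 6.06% of their flanks, and ATAATA in 27.0%, against 7.26%. AAAATA was in 43.5%, against 12.8%. Over all sites AATATA was in 31.7% of the windows (31.5 ± 1.31% in the replicates, SD, n = 3), against 28.4% of eligible windows weighted to the same A/T content, 12.8% of all eligible windows and 25.9% of intronic summits. ATAATA was in 26.9%, against 24.6% of the weighted and 11.3% of all eligible windows. Neither word was particular to these sites, since intergenic summits beyond 5 kb had AATATA in 31.0% and ATAATA in 29.1%. AAAATA, in 42.6%, against 41.8% of the weighted windows, and TTAAAA, in 36.4%, against 36.7%, were close to that level, and AAATTA, in 30.3%, against 32.2%, was below it. On the other arms TTAAAA was in 33.6%, against 12.7% of the flanks, and AAATTA in 28.4%, against 13.6%. The 5 words picked for being scarcer than in the flanks were all rich in G and C. On the other arms GCTGCC was in 0.795% of the summit windows, against 10.3% of the flanks, GCCAGC in 2.78%, against 9.44%, and CAGCAG in 2.78%, against 11.9%. GCGGCA was in 1.39%, against 7.85%, and CAGCCA in 1.99%, against 10.1%. Over all sites CAGCAG was in 3.07%, against 3.03% of the weighted windows. The other 4 were below their weighted level. Of these GCTGCC was in 1.57%, against 2.44%, GCCAGC in 1.64%, against 2.55%, GCGGCA in 1.07%, against 1.92%, and CAGCCA in 2.21%, against 3.33%.

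The genes beside the sites were counted in lists of developmental, tissue and housekeeping genes. In all, 955 genes had the nearest start site to at least 1 site, 630 of them protein-coding, which is 4.52% of the 13945 protein-coding genes. Only 5927 of these have any eligible sequence nearest to them, and of those 10.6% had a site. The lists differ in how much such sequence their genes have, so shares are also given over genes with eligible sequence and as sites per Mb. Across protein-coding genes the density was 78.4 per Mb and the median signal of the sites 475.

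In the list of epidermal growth factor receptor, Wnt, Hedgehog and BMP signalling genes, 9 of 32 (28.1%, 95% Wilson interval 15.6 to 45.4%) had a site, or 50% of the 18 with eligible sequence, with 11 sites at 218 per Mb and a median signal of 1038. Besides fz they included Dad, the inhibitory Smad of BMP signalling, with a site of signal 2185 lying 1077 bp upstream. The ETS repressor gene aop had a site of signal 1898 lying 1501 bp upstream, and kek1, which encodes an inhibitor of the epidermal growth factor receptor, one of 1758 lying 1002 bp upstream. All 4 of these sites were held by all 3 replicates.

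In the Notch list 6 of 22 genes (27.3%, 13.2 to 48.2%) had a site, or 31.6% of the 19 with eligible sequence, with 6 sites at 187 per Mb and a median signal of 607. E(spl)malpha-BFM led with 5145, followed by E(spl)m2-BFM with 4355. The Notch ligand gene Ser had a site of signal 806 lying 3506 bp upstream, and mib1, whose product is a ubiquitin ligase acting on Notch ligands, one of 407. The symbol Dl of this list found no match in the annotation and was left out. The ecdysone list had 3 of 14 genes (21.4%, 7.57 to 47.6%), or 42.9% of the 7 with eligible sequence, with 6 sites at 344 per Mb and a median signal of 362. They were the nuclear receptor genes Eip75B, with signal up to 1248, and Hr38, with up to 347, and Eip93F, with up to 377, each with 2 sites.

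Among actin and adhesion genes 3 of 14 had a site, or 33.3% of the 9 with eligible sequence, with 5 sites at 208 per Mb. The atypical cadherin genes ds, with signal 4126 at 589 bp upstream, and ft, with 2792 at 1322 bp upstream, were both held by all 3 replicates, and Ten-a, with 262, was held by 2. Of the disc patterning genes 5 of 43 (11.6%, 5.07 to 24.5%) had a site, or 14.7% of the 34 with eligible sequence, with 8 sites at 67.6 per Mb. The strongest were at al with 772, bab2 with 741, ptc, the Hedgehog receptor gene, with 700, and pdm2 with 590. The proneural and bristle list had 3 of 16, or 33.3% of the 9 with eligible sequence, at 98.5 per Mb. They were nvy with 963, the repressor gene hry with 453 and the zinc finger gene sens with 315. In the cell death list 1 of 8 had a site, or 20% of the 5 with eligible sequence, with 2 sites at 92.9 per Mb. It was rpr, whose product opposes the caspase inhibitor Diap1, with a site of signal 1115 lying 4318 bp upstream.

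In the muscle and heart list 2 of 17 genes had a site, or 13.3% of the 15 with eligible sequence, at 57.1 per Mb. They were the muscle actin genes Act57B with signal 3429 at 4054 bp upstream and Act87E with 767 at 2057 bp downstream. The neuronal list had 2 of 17, or 18.2% of the 11 with eligible sequence, at 63.1 per Mb. They were VGlut, the vesicular glutamate transporter gene, with 321 in 2 replicates, and scrt with 266 in 1. Among peaks held by both other replicates the list's share was 5.88% without replicate 1 and 0 without replicate 2 or replicate 3, against 11.8% in the whole list, and it was 0 among the 5119 strongest peaks. Cuticle genes of the Cpr family had 9 of 70 (12.9%, 6.91 to 22.7%), or 15.5% of the 58 with eligible sequence, with 14 sites at 134 per Mb. The strongest were at Cpr72Ea with 4527, Cpr51A with 2509 and Cpr72Eb with 2447, all upstream. Chemosensory receptor and odorant-binding genes had 14 of 230 (6.09%, 3.66 to 9.96%), or 10.7% of the 131 with eligible sequence, with 24 sites at 70.8 per Mb, led by Gr93d with 2935 and Gr93b with 2108. Cytosolic ribosomal protein genes had 3 of 92 (3.26%, 1.12 to 9.15%), or 10% of the 30 with eligible sequence, with 3 sites at 62.6 per Mb, led by RpLP0 with 666.

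No site had a Hox gene nearest (0 of 8, which allows a share of up to 37.5%), nor a heat shock gene (0 of 15, up to 20%), nor a gene of the tracheal and epidermal list (0 of 12, up to 25%). The Hox genes have 0.0177 Mb of eligible sequence, the heat shock genes 0.00369 Mb and the tracheal and epidermal genes 0.00312 Mb. Every list with a site was above the 4.52% of all protein-coding genes, except the ribosomal list with 3.26%. Actin and adhesion genes, with 21.4%, equalled the ecdysone list. Over genes with eligible sequence the base was 10.6%. The ribosomal list, with 10%, was below it and the chemosensory list, with 10.7%, close to it. By sites per Mb the base was 78.4. The disc patterning (67.6), neuronal (63.1), muscle and heart (57.1), chemosensory (70.8) and ribosomal (62.6) lists were below that density. The other lists with a site were above it. Among the 5119 strongest peaks the signalling share was 21.9%, the Notch share 13.6% and the ecdysone share 7.14%. All protein-coding genes had 2.24% there. No list was tested. A nearest start site names a neighbour and not a regulated gene.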

How the data were processed

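ChIP-seq peak lists were used as the authors deposited them: 1 list of 30000 peaks for each replicate, 1 for the replicates pooled, and the IDR list of 10239 kept from it, all on dm6 and called against 1 shared control alignment, per the deposited file lists. Which peak caller was used is not given in the sources used here. The deposited signal is the caller's own value for a peak and differs in scale between lists. It was used to rank and describe peaks within a list. The deposited −log10 q-value was tied in most peaks and was not used. The deposited summit offset gave the summit base. No read numbers are in the lists, so depth is unknown, and the Wilson intervals, at a confidence level of 95%, cover counting error only.

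Genes came from Ensembl release 115 without transposable elements, and sequence from the RefSeq dm6 assembly. Each base of the 6 arms was given its nearest start site, so that densities are summits per Mb of sequence that meets the same rule. For replicate values the 10239 strongest peaks of each replicate were treated like the IDR list, with an overlap of at least 1 bp counted as held. Differences between replicate values were tested by exact sign-flip permutation, 2-sided. Eligible windows were tiled at 101 bases and weighted to the A/T content of the summit windows in bins of 4 bases. Of the list symbols, 1 found no match, which was Dl of the Notch list. The sites, the 15 gene lists and the 20 words were chosen with earlier results of these data known. The named sites are the 12 of highest signal held by all replicates, of which 1 is not reported here, the 5 gaps with most sites, up to 4 genes a list and the sites at the distance bounds. Python 3.11.15, numpy 2.4.6, pandas 2.3.3, scipy 1.17.1 and matplotlib 3.10.9 were used, and the position, overlap and start-site functions were tested on simulated summits.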

Additional observations from a re-analysis of the deposited data

How the results depend on the processing

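The ratio of site density to that of all IDR summits stayed above 1 with a lower bound of 1000 bp, the 5119 strongest peaks, protein-coding genes alone, the pooled 30000 peaks and with any 1 replicate left out (1.05 to 1.25), and was 1.04 in 100-kb windows with a peak, but 0.9996 without arm 3L; both of these were chosen after seeing the data. The upstream share stayed above that of the eligible bases, the median signal below that of other summits and the A/T content above that of eligible windows under every alternative run. With the pooled list the upstream share was 64.3% against 64.1% of eligible bases. The share of the list was 12.8% of the 5119 strongest, 11.8% with protein-coding genes alone and 15.3% of the pooled list. The share held by all replicates was 70.7% when an overlap of 50% of the peak was asked for, 40.4% with 5119 and 98.2% with 20478 peaks a replicate, and 99.5% among the 5119 strongest. The share of protein-coding genes with a site was 5.93% by nearest protein-coding start site, 2.24% with the 5119 strongest peaks and 3.66 to 3.87% without 1 replicate, where lists are shorter because peaks must be held by both others. Of 75 values of single gene lists under these settings, 41 were equal to the main value or within the replicate SD of it and 34 were not. The 41 include every value of the Hox, heat shock and tracheal and epidermal lists. These were 0 throughout, and settings that only drop peaks could not change that. Read depth is unknown, and the weakest sites were the least often held.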

Other observations

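The 100-kb windows with most of the sites were 2 neighbours on 3L, from 11300001 to 11400000 and from 11400001 to 11500000, with 21 sites each out of 38 and 30 IDR summits. Another 3L window, from 16100001 to 16200000, held 15 of its 30 IDR summits as such sites on only 17854 bp of eligible sequence. By nearest gene, CG13898 and lncRNA:CR45737 followed lncRNA:CR45936 with 6 sites each, and the cuticle gene Cpr12A had 5, the strongest of them with signal 613. The 3L gap between the homeobox gene HGTX and shd held 6 sites between 14609893 and 14613946, of which 5 were held by all 3 replicates.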
